A study of Mus musculus with 6 samples.

Results

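Heat shock chaperones of the cytosol and the mitochondrial matrix were examined in mouse liver, as 10 genes taken by name from the 54532 genes of each deposited table. They were Hspa1a, Hspa1b, Hspa8, Hsph1, Dnajb1, Hsp90aa1, Hsp90ab1, Hspb1, Hspd1 and Hspe1, and each matched a single Ensembl gene. Liver RNA had been sequenced from 6 adult male C57BL/6J mice aged 8 weeks. The paternal saline group, called the saline group here, held 3 mice whose fathers had been given saline, and the paternal nicotine group, called the nicotine group, held 3 mice whose fathers had been given nicotine. No treatment of the offspring themselves is given in the labels, and nothing is said of how many fathers or litters the mice came from, so the tests reflect variation among these 6 mice alone. The comparison asked how the transcripts of these chaperones in the offspring differed with the treatment of the father.

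Chaperones bind unfolded or newly made proteins and keep them from aggregating. In the cytosol, HSP70 proteins take up such chains with the help of J-domain proteins, release them with the help of nucleotide exchange factors, and pass some of them on to HSP90; small heat shock proteins hold unfolded chains without using ATP. In the mitochondrial matrix, the chaperonin ring of HSP60 and its lid HSP10 encloses proteins that have been imported. Many of these genes are induced together by heat shock factor 1 (HSF1), which binds repeats of the unit GAA in alternating orientation, called heat shock elements, while others are made in large amounts in every cell.

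The sequences before the start sites show what these genes share and where they differ. Windows from 250 bases before to 50 bases after a RefSeq start site (build GRCm38.p6) were at hand for 7 of the 10 genes. GAANNTTCNNGAA, a heat shock element of 3 units, was searched on both strands, where it reads TTCNNGAANNTTC, and was found in the windows of Hspd1, Hspe1 and Hsph1. Of all 32851 windows 0.603% hold it, and of all 27025 genes with a window 0.662%. For Hspd1 and Hspe1 the match is the same DNA, beginning 144 bases before a RefSeq start site of Hspd1 and 89 bases before that of Hspe1. Another Hspd1 window, around a start site further upstream, holds no match. The genes lie head to head on chromosome 1. In the GENCODE annotation 107 bases lie between the start sites of the full-length Hspd1 transcript and of Hspe1. The 30 bases around this element (chr1:55088053-55088082, plus strand) are shown because the mitochondrial chaperonin genes lie on either side of it, with every base of a match in capitals.
Hspd1-Hspe1: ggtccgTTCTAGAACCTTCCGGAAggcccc
The match of Hsph1 lies 36 bases after the first of its start sites in the table.

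The shorter motif, 2 units of the element, was searched in both arrangements, GAANNTTC and TTCNNGAA. Each arrangement reads the same on both strands, and every longer match holds both. Either arrangement counted as a match, and 6 of the 7 genes had a match, with the shared DNA of Hspd1 and Hspe1 counted for both. Of all genes with a window 17.0% had such a match, and of all windows 15.1%. The 250 bases before the start sites of Hspa1a (chr17:34972157-34972406, minus strand) and Hspa1b (chr17:34959239-34959488, minus strand) are shown because the transcripts of these genes are near-identical copies as well, and those of Hspb1 (chr5:135887669-135887918, plus strand) because it was the gene that passed the test below. Matches of GAANNTTC or TTCNNGAA are in capitals.
Hspa1a: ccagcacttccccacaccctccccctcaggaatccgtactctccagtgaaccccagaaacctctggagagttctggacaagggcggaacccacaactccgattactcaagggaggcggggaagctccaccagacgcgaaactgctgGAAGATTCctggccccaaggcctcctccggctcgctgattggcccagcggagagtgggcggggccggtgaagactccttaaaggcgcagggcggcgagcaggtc
Hspa1b: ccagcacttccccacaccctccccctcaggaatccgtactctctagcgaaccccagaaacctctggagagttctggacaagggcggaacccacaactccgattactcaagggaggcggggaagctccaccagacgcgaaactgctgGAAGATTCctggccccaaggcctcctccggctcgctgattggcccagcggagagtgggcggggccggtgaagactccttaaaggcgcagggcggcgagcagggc
Hspb1: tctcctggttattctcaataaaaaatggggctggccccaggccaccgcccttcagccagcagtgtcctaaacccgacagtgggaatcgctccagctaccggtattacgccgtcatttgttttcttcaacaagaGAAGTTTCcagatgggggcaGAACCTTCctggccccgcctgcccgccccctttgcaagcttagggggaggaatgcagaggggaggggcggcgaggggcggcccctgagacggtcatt
Hspa1a and Hspa1b were identical at 247 of these 250 bases, and the motif of both begins 104 bases before the start site. In Hspb1 the motifs begin 117 and 97 bases before it. A match describes the letters in the window and not the binding of a factor.

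The values are RPKM, read counts scaled by gene length and library size. The read totals behind them ranged from 61837267 to 70089315 per library, and the lowest number of reads behind any value of the 10 genes was 314. The test covered the 8773 genes that averaged 1 RPKM or more, all 10 chaperone genes included. Fold changes were taken of RPKM + 1 on a log2 scale, so that those of low genes come out too small, and a gene is said to have risen or fallen when its adjusted p was under 0.05 in limma with Benjamini-Hochberg adjustment over all genes tested. Alb, which encodes albumin and is the defining transcript of hepatocytes, was at 19914 to 28635 RPKM in the saline group and at 11098 to 12486 RPKM in the nicotine group, and fell (log2 fold change -0.998, adjusted p = 0.0161 in limma). Of the 10 hepatocyte markers tested, Alb was the 1 that fell and 9 did not pass, though 5, Alb included, were lower in every paternal nicotine library. In these bulk samples, fewer cells of a type and less RNA per cell cannot be told apart.

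Of the 10 genes, Hspb1 rose, none fell and 9 did not pass. For comparison, 9.28% of all genes tested passed, 3.89% as higher and 5.39% as lower. The groups did not overlap for 5 of the 10 genes, against 33.6% of all genes tested: Hspb1, Hsp90aa1, Hsph1 and Hspd1 were higher in every paternal nicotine library than in any paternal saline library, as were 14.4% of all genes tested, and Hspe1 was lower in each, as were 19.2%. An unadjusted p under 0.05 was reached by the same 5 genes, and by 26.3% of all genes tested. The median log2 fold change was 0.49 over the 10 genes and -0.018 over all genes tested.

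**Figure D1:**
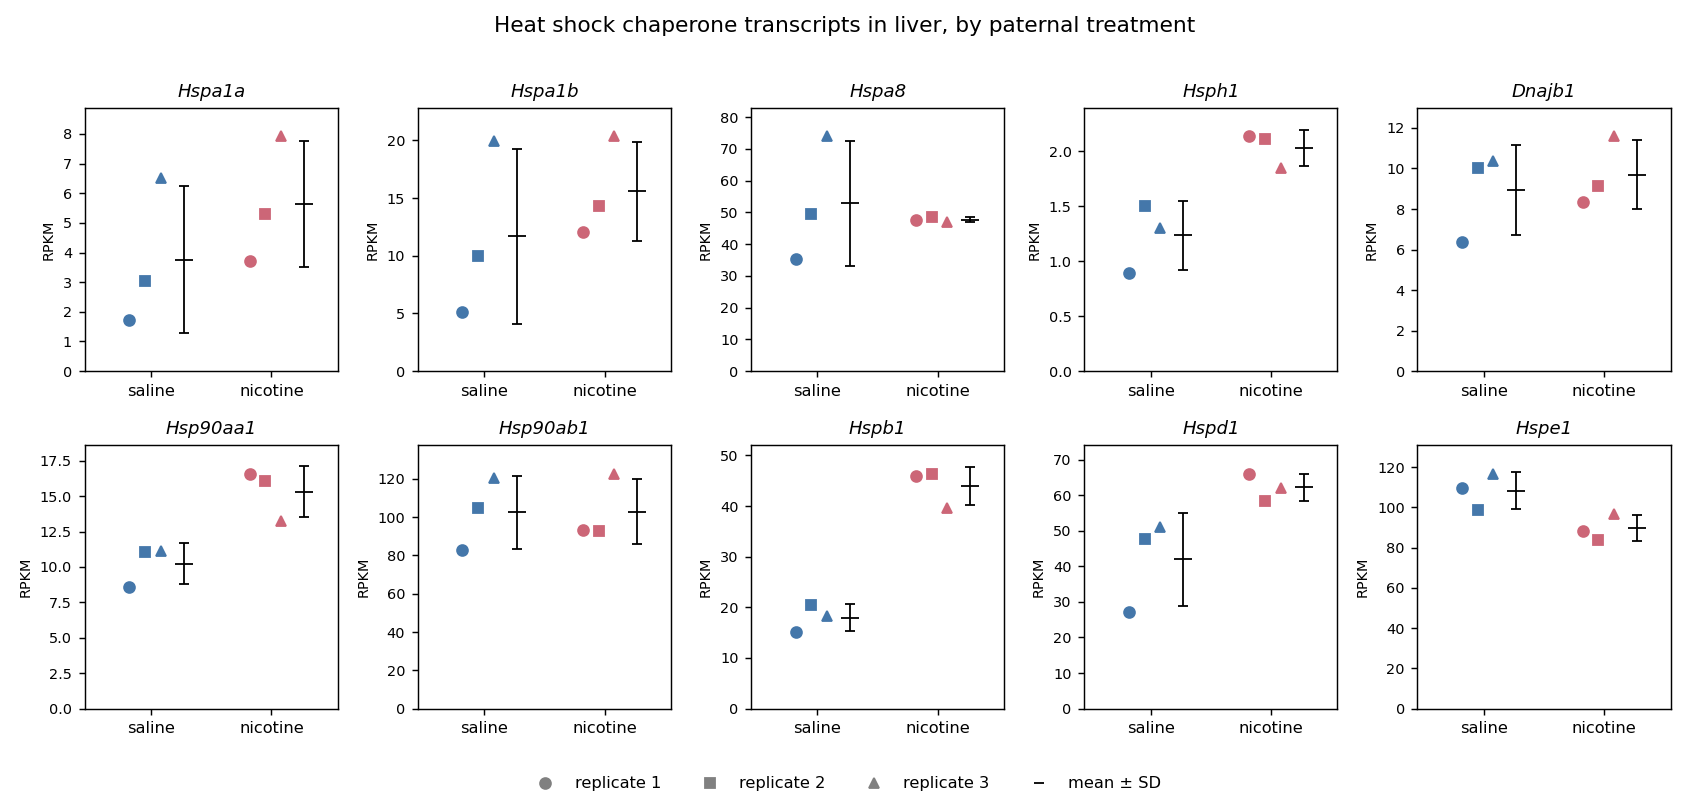
RPKM of each gene in each library, with a separate axis from 0 for each gene; circles, squares and triangles are replicates 1, 2 and 3 of a group, and the bar beside them is the mean ± SD (n = 3). Hspb1 was at 15.2 to 20.5 RPKM in the saline group and at 39.6 to 46.4 RPKM in the nicotine group, while Hspa1a, Hspa1b, Hspa8, Hsp90ab1 and Dnajb1 overlapped between the groups.

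Hspb1 encodes HSP25, the mouse form of the small heat shock protein HSP27, which holds unfolded proteins and also binds to the actin cytoskeleton. It lies on chromosome 5 (ENSMUSG00000004951, 135887919 to 135889563, GRCm38). It was at 15.2, 20.5 and 18.2 RPKM in paternal saline replicates 1 to 3 and at 45.9, 46.4 and 39.6 RPKM in paternal nicotine replicates 1 to 3. The lowest paternal nicotine library was thus well above the highest paternal saline library. Hspb1 rose with a log2 fold change of 1.25 (SE 0.13, adjusted p = 0.00666 in limma), from 17.96 ± 2.65 to 43.96 ± 3.81 RPKM (SD, n = 3 per group), a ratio of means of 2.45. The adjusted p stayed between 0.0105 and 0.0403 when any one library was left out. Hspb1 has near-identical copies, the gene Gm9817 and the pseudogene Hsp25-ps1, whose reads together came to 8.40% to 12.4% of its own; with their reads added to it, the log2 fold change was 1.26 (SE 0.12, limma adjusted p = 0.00646).

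Among the marker sums of other cell types given here, only that of neutrophils did not overlap between the groups. Of 12 neutrophil markers 4 were tested and 2 rose, and their summed level was 6.84 to 10.9 RPKM in the saline group and 224 to 269 RPKM in the nicotine group. In the nicotine group most of this sum was Lcn2, which hepatocytes also make. Without Lcn2 the sum was 5.94 to 7.06 RPKM in the saline group against 26.1 to 85.9 RPKM in the nicotine group. Of these markers Ly6g was at 0 in 3 libraries, Mpo in 4, Camp in 5, Ltf in 2, and S100a9 and Ngp in 1 each. Markers of stellate and smooth muscle cells, which express small heat shock proteins in many tissues, had sums of 35.7 to 38.3 against 34.6 to 43.5 RPKM, and 0 of 6 tested passed in limma, with 1 at an unadjusted p under 0.05. Of 5 tested cholangiocyte markers 2 rose and 1 fell, with sums of 25.2 to 30.2 against 28.2 to 31.7 RPKM, none of 10 endothelial markers passed in limma (1 at an unadjusted p under 0.05), and their sums were 57.1 to 73.6 against 63.7 to 75.0 RPKM. The part of other cell types in the level of Hspb1 was not tested.

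The HSP90 genes encode the 2 cytosolic HSP90 proteins, the inducible HSP90 alpha (Hsp90aa1) and the constitutive HSP90 beta (Hsp90ab1), which fold kinases and steroid receptors. Hsp90aa1 (chromosome 12, 110690605 to 110702728) was at 8.56, 11.04 and 11.12 RPKM in the saline group and at 16.6, 16.1 and 13.3 RPKM in the nicotine group, in the order of the replicates. All 3 paternal nicotine libraries were above all 3 paternal saline libraries, and the difference did not pass (log2 fold change 0.54, SE 0.14, limma adjusted p = 0.0665). Among the 4002 genes averaging 5 RPKM or more it did (limma adjusted p = 0.0438). Hsp90ab1 (chromosome 17, 45567775 to 45573271) was at 82.6, 104.6 and 120.7 RPKM in the saline group and at 93.1, 92.97 and 122.8 RPKM in the nicotine group. These ranges overlapped almost fully, with a log2 fold change of 0.0090 (SE 0.18) and a 95% interval from -0.43 to 0.45. The ratio of Hsp90ab1 to Hsp90aa1 within a library was 9.66, 9.47 and 10.9 in the saline group and 5.61, 5.79 and 9.26 in the nicotine group. The ratio was lower in every paternal nicotine library, with replicate 3 close to the paternal saline values (exact permutation test, two-sided, p = 0.1, the smallest that 3 against 3 libraries allow). The ratios were chosen after these values had been seen.

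Hspd1 encodes HSP60 and Hspe1 encodes HSP10, the ring and the lid of the mitochondrial chaperonin. Hspd1 (chromosome 1, 55077835 to 55088243) was at 27.1, 47.8 and 51.1 RPKM in the saline group and at 66.1, 58.5 and 62.2 RPKM in the nicotine group. Every paternal nicotine library was higher, paternal saline replicate 1 lay far below the other libraries, and the difference did not pass (log2 fold change 0.61, SE 0.24, limma adjusted p = 0.188). Without paternal saline replicate 1 the log2 fold change was 0.33 (SE 0.10, limma adjusted p = 0.148). Hspe1 (chromosome 1, 55088132 to 55091307) was at 109.6, 98.6 and 116.8 RPKM in the saline group and at 88.3, 83.9 and 96.7 RPKM in the nicotine group. Here every paternal nicotine library was lower, and this difference did not pass either (log2 fold change -0.27, SE 0.10, limma adjusted p = 0.152).

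The chaperonin partners, which flank the element printed above, thus lay in opposite directions between the groups, though neither difference passed. The ratio of Hspe1 to Hspd1 within a library was 4.04, 2.06 and 2.29 in the saline group and 1.34, 1.43 and 1.56 in the nicotine group. All paternal nicotine ratios were below all paternal saline ratios, which follows from the levels of the single genes and is given as a description, with no test. Annotated Hspd1 transcripts that start further upstream than the full-length transcript share 112 exonic bases with Hspe1 on the opposite strand. No source used here says if strand was kept, so reads in that stretch cannot be assigned to either gene with certainty. Reads on Hspd1-ps3, a processed pseudogene near-identical to Hspd1, came to 3.91% to 11.5% of those of Hspd1.

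**Figure D2:**
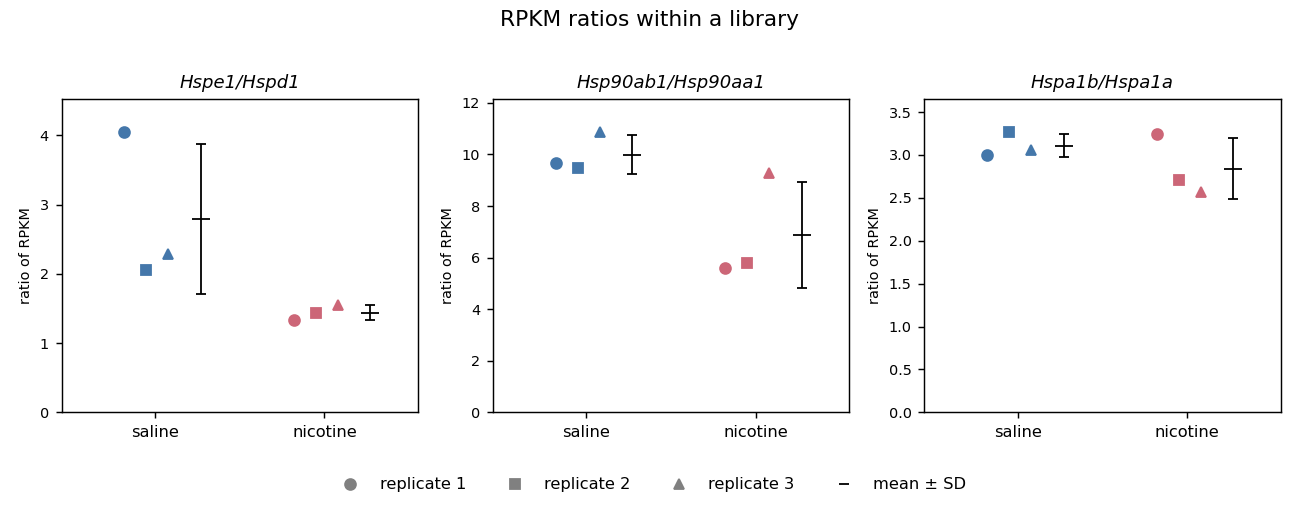
Ratios of RPKM within a library for 3 pairs of chaperone genes, with symbols and bars as in the plot of the single genes (n = 3 per group). The ratio of Hspe1 to Hspd1 was at least 2.06 in the saline group and at most 1.56 in the nicotine group, the ratio of Hsp90ab1 to Hsp90aa1 was also lower in each paternal nicotine library, and the ratio of Hspa1b to Hspa1a overlapped between the groups.

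In the HSP70 system, Hspa1a and Hspa1b encode HSP70 proteins that are strongly induced by stress, and both lie on chromosome 17 (34969190 to 34972156 and 34956436 to 34959238). Their transcripts align at 99.2% identity over 2201 bases, so the division of reads between them is uncertain and their sum is given first. The sum was at 6.85, 13.01 and 26.5 RPKM in the saline group and at 15.7, 19.6 and 28.3 RPKM in the nicotine group. The libraries spread over a 3.87-fold range in the saline group and a 1.80-fold range in the nicotine group, and the groups overlapped. Its log2 fold change was 0.58 (SE 0.47, limma adjusted p = 0.493), with a 95% interval from -0.58 to 1.75. It depended on single libraries, at 0.14 without paternal saline replicate 1 and 1.04 without paternal saline replicate 3. Hspa1a alone was at 1.71 to 6.52 against 3.71 to 7.93 RPKM and Hspa1b at 5.13 to 19.95 against 12.04 to 20.4 RPKM, and the ratio of Hspa1b to Hspa1a stayed between 2.57 and 3.26 in the 6 libraries.

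The summed level of 12 Kupffer cell and macrophage markers varied among the same libraries. It was 438, 497 and 861 RPKM in paternal saline replicates 1 to 3 and 435, 787 and 1376 RPKM in paternal nicotine replicates 1 to 3, and none of the 12 markers was at 0 in any library. None of them passed in limma, with 1 at an unadjusted p under 0.05. Within each group the library with the highest marker sum also had the highest sum of Hspa1a and Hspa1b, replicate 3 in both. The genes whose levels were most like that sum over the 6 libraries, by Pearson correlation of log2(RPKM + 1), were Gm19774, Vamp3, Gm45837, Tcf25 and Fcna, at 0.984 to 0.992. Fcna encodes ficolin A, which liver macrophages make. The correlation ranks genes over 6 libraries and was not tested, and the part of macrophages in the level of Hspa1a and Hspa1b was not tested.

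Hspa8 (chromosome 9, 40800984 to 40810087) encodes HSC70, the HSP70 protein present in every cell. It was at 35.3, 49.3 and 74.03 RPKM in the saline group and at 47.7, 48.5 and 46.99 RPKM in the nicotine group. The paternal nicotine libraries were almost equal and lay within the paternal saline range (log2 fold change -0.081, SE 0.26, limma adjusted p = 0.871, 95% interval from -0.71 to 0.55). Without paternal saline replicate 3 the log2 fold change was 0.19. Reads on its near-identical copies, 7 processed pseudogenes and the noncoding RNA gene Gm26825, came to 16.4% to 27.6% of its own. The reads on Gm26825 numbered 2964, 6 and 8 in the saline group and 2608, 10 and 1263 in the nicotine group, by replicate. They were thus many in paternal saline replicate 1 and paternal nicotine replicates 1 and 3, and few in the other libraries. Gm9817, the copy of Hspb1, had 41, 25 and 43 reads in those 3 libraries and none in the rest. With the reads of all copies added, the log2 fold change of Hspa8 was -0.065 (SE 0.23, limma adjusted p = 0.886).

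Of the partners of HSP70, Dnajb1 (chromosome 8, 83608193 to 83612653) encodes HSP40, a J-domain protein that delivers unfolded chains. It was at 6.38, 10.02 and 10.4 RPKM in the saline group and at 8.35, 9.11 and 11.6 RPKM in the nicotine group, and the groups overlapped (log2 fold change 0.12, SE 0.21, limma adjusted p = 0.752). Hsph1 (chromosome 5, 149614287 to 149636376) encodes HSP110, a nucleotide exchange factor for HSP70. It was at 0.890, 1.505 and 1.305 RPKM in the saline group and at 2.14, 2.11 and 1.84 RPKM in the nicotine group. Every paternal nicotine library was higher, and the difference did not pass (log2 fold change 0.45, SE 0.13, limma adjusted p = 0.0840). With a pseudocount of 0.01 RPKM the log2 fold change of this low gene was 0.74 (SE 0.22), with an adjusted p of 0.0957 in limma.

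**Figure D3:**
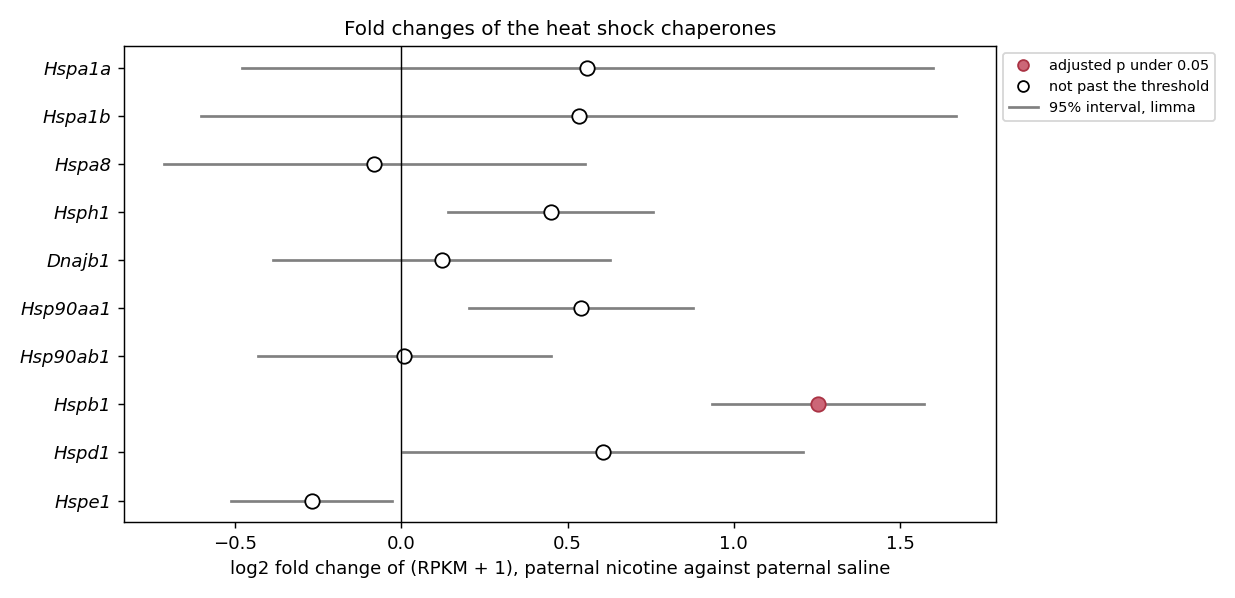
Log2 fold change of (RPKM + 1) between paternal nicotine and paternal saline for each gene, with its 95% interval from limma, not adjusted for the number of genes. Hspb1 (filled) passed an adjusted p of 0.05; the interval of Hspa1b runs from -0.60 to 1.67 and that of Hsp90ab1 from -0.43 to 0.45.

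Paternal saline replicate 1 had the lowest level of all 6 libraries for 9 of the 10 genes, all but Hspe1. Of all genes tested, 25.1% were lowest in that library. After rescaling the libraries by their median ratio the count was again 9 of 10, against 18.5% of all genes tested. The highest library divided by the lowest was larger in the saline group than in the nicotine group for all 10 genes, 9 of 10 after rescaling, with medians of 1.66 and 1.21. Over all genes tested the paternal saline range was the larger in 51.7%. The summed level of hepatocyte markers was 36305, 29601 and 29747 RPKM in the saline group and 17270 to 17598 RPKM in the nicotine group, most of it Alb. Without Alb the sum was 7670, 9687 and 6903 RPKM in the saline group and 5068, 6171 and 5809 RPKM in the nicotine group, by replicate, and paternal saline replicate 1 no longer had the highest. The part of hepatocyte content in these levels was not tested.

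Levels of different genes can be set side by side only per length, and the deposited RPKM divide by the summed exon length of all transcripts of a gene. On that scale Hsp90ab1, at a mean of 102.8 RPKM over the 6 libraries, and Hspe1, at 98.98 RPKM, were the highest. Hspd1 (52.1 RPKM) and Hspa8 (50.3 RPKM) came next, followed by Hspb1 (30.96 RPKM), Hspa1b (13.6 RPKM), Hsp90aa1 (12.8 RPKM), Dnajb1 (9.31 RPKM), Hspa1a (4.70 RPKM) and Hsph1 (1.63 RPKM). The ranges of neighbours in this order over the 6 libraries overlapped, except for Hspe1 and Hspd1, where the lowest library of Hspe1 (83.9 RPKM) was above the highest of Hspd1 (66.1 RPKM). With the merged exon length of each gene in its place, a scale added after the data had been seen, Hsp90ab1 was again the highest at 241.6, Hspa8 rose to the second place at 143.8 and Hspa1a became the lowest at 4.70. The order of genes with many transcripts therefore depends on the length used, while the ratio of group means of a gene does not.

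The wider chaperone network was read from lists of genes by role. Outside the endoplasmic reticulum, 9 lists held 103 genes in addition to the 10, of which 77 were tested: none rose in limma, 2 fell and 75 did not pass, with a median log2 fold change of -0.035. Hsf1, which encodes the main heat shock factor, was below the tested range at 0.577 ± 0.0602 RPKM in the saline group and 0.654 ± 0.0586 RPKM in the nicotine group (SD, n = 3 per group). Of 17 tested HSP90 co-chaperones none passed in limma, 3 had an unadjusted p under 0.05, and the median log2 fold change was -0.033. Those 3 were Stip1, Fkbp5 and Fkbp4, and they did not share a direction. Stip1, which links HSP70 to HSP90, was at 37.0, 44.8 and 38.4 RPKM in the saline group and at 52.8, 54.1 and 52.4 RPKM in the nicotine group (limma adjusted p = 0.0518). The immunophilin Fkbp5 was at 1.25 ± 0.127 against 2.80 ± 1.06 RPKM (limma adjusted p = 0.0960), and the immunophilin Fkbp4 was lower in every paternal nicotine library, at 36.1 ± 3.58 against 28.02 ± 3.65 RPKM (limma adjusted p = 0.137). Of these 17 genes 5 were higher and 4 lower with no overlap of the groups, against 14.4% and 19.2% of all genes tested. None of 14 cytosolic J-domain proteins, 9 exchange and release factors, 8 subunits of the chaperonin TRiC or 6 prefoldin subunits passed, with medians between -0.046 and 0.0017. In limma, 0, 1, 2 and 0 of these had an unadjusted p under 0.05.

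In the list of mitochondrial chaperones and proteases, not all of them matrix proteins, 2 of 18 tested genes fell and 16 did not pass. The median log2 fold change was -0.15, and of all genes tested 5.39% fell. Dnajc19, a J-domain protein of the inner membrane, fell from 14.2 ± 0.556 to 9.89 ± 0.357 RPKM (limma adjusted p = 0.0187), and Timm44, which anchors the import motor to the inner membrane translocase, fell from 4.66 ± 0.125 to 3.26 ± 0.146 RPKM (limma adjusted p = 0.0281). Hspa9, which encodes the matrix HSP70 mortalin, was at 95.4 ± 3.20 RPKM in the saline group and 90.2 ± 4.81 RPKM in the nicotine group (limma adjusted p = 0.554). Small heat shock proteins other than Hspb1 were mostly below the tested range: of 10 listed 2 were tested, and Hspb8 was at 49.4, 120.9 and 64.3 against 129.9, 149.6 and 91.9 RPKM (limma adjusted p = 0.271).

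Of 21 tested textbook targets of HSF1 other than the 10 genes, among them Stip1, Fkbp4, Hspb8 and Hspa9 of the lists above, 3 rose, none fell and 18 did not pass, with a median log2 fold change of 0.22. The 3 were Hmox1, which degrades heme, at 12.05 ± 2.99 against 47.6 ± 3.12 RPKM (limma adjusted p = 0.00648), and the immediate early genes Ier5 and Atf3, at adjusted p of 0.0102 and 0.00699 in limma. Each of the 3 is known to be induced through other factors too, and the part of HSF1 in the levels of this list was not tested. For comparison, 3.89% of all genes tested rose and 5.39% fell. With no overlap of the groups, 10 of these 21 genes were higher and 1 was lower, against 14.4% and 19.2% of all genes tested. The immediate early list itself, in which Junb had the lowest p beside Atf3 and Ier5, had 6 of 14 tested genes up and none down, with a median of 0.51. Chaperones of the endoplasmic reticulum are given beside these as the third compartment: 16 of 18 rose, none fell and 2 did not pass, and the median log2 fold change was 1.19. Creld2, Hsp90b1 and Hyou1 had the lowest p. The HSP90 of that compartment, Hsp90b1, rose at a log2 fold change of 1.06 (adjusted p = 0.00436 in limma), and its HSP70, Hspa5, at 1.36 (adjusted p = 0.00476 in limma), against 0.54 for Hsp90aa1, 0.0090 for Hsp90ab1, 0.58 for the sum of Hspa1a and Hspa1b and -0.081 for Hspa8 in the cytosol, none of which passed. The difference between the compartments was not tested.

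**Figure D4:**
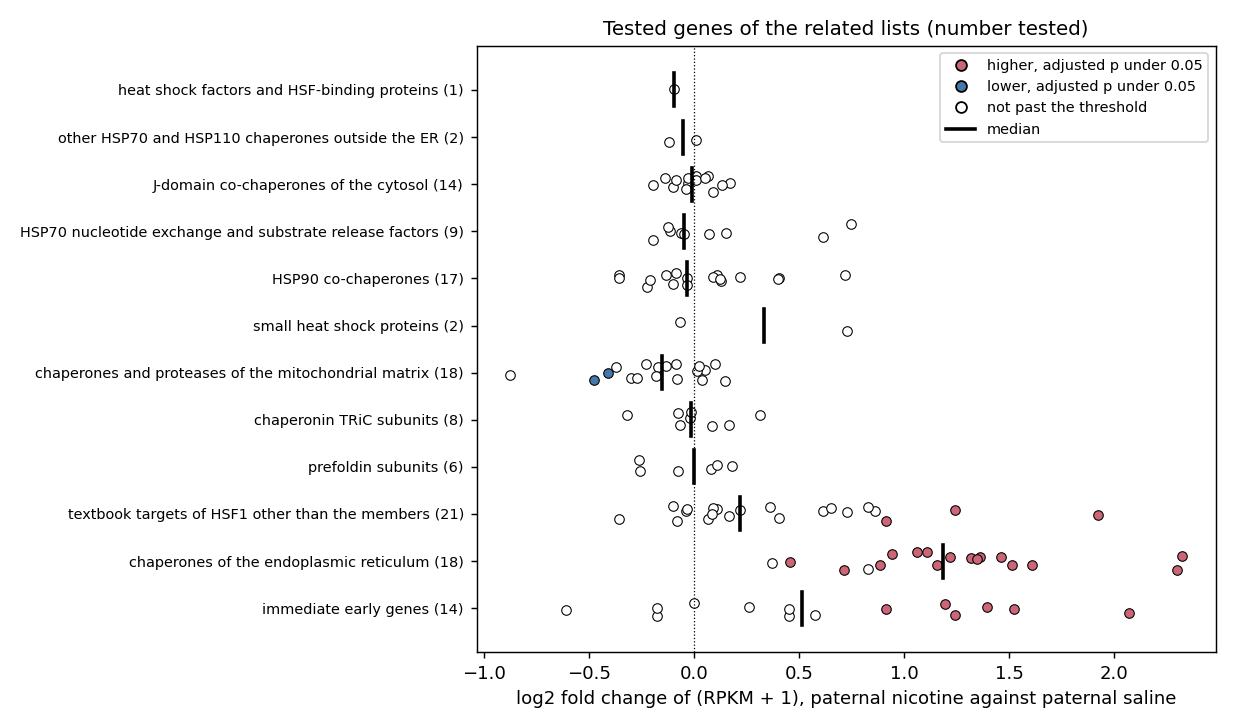
Log2 fold changes of (RPKM + 1) for the tested genes of each related list, 1 point per gene, with the number tested in brackets and the median as a bar. Filled points passed an adjusted p of 0.05 in limma: 16 of 18 chaperones of the endoplasmic reticulum were higher, and among the 9 lists of the cytosol and mitochondria 2 genes were lower and none higher.

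The genes most like Hspd1 over the 6 libraries, by Pearson correlation of log2(RPKM + 1), were Gm15610, C4b, C2cd2l, Gm6485 and Atg9a, at 0.984 to 0.991. C4b, which encodes complement component C4, was at 52.2 RPKM in paternal saline replicate 1 and at 168 RPKM in both other libraries of that group, against 220 to 239 RPKM in the nicotine group. Its lowest library is thus also that of Hspd1. Among the 10 genes, the levels of Hsp90aa1, Hsph1 and Hspb1 followed each other over the 6 libraries, with correlations of 0.952 to 0.978 that hold the difference between the groups as well. Hspe1 went the other way, with a correlation of -0.885 to Hspb1, its highest level in paternal saline replicate 3 and its lowest in paternal nicotine replicate 2.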

How the data were processed

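The authors deposited 1 table of RPKM values per liver library. CASAVA, TopHat and the build mm8 are named in the submitters' processing notes; neither the counter nor the gene models, nor how multiply mapped reads were handled, is given in the sources used here. Symbols and coordinates came from GENCODE M21 (GRCm38), which held 99.93% of the identifiers, and sequences from RefSeq (GRCm38.p6). The length column the authors deposited (other values, in bases) matched that row's gene in 96 rows, so it was left aside. Values under 1e-06 RPKM, placeholders for genes without a read, were set to 0; they gave the read totals, from which reads per gene were recovered, whole within 0.01 for each of the 25531 genes that had any, 1200 of them only after a search for the gene length.

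The log2(RPKM + 1) values of the 8773 genes averaging 1 RPKM or more were fitted with limma 3.58.1 (R 4.3.3; eBayes with trend and robust), at a Benjamini-Hochberg adjusted p of 0.05. The design allowed for counts, and the files hold RPKM. The fit was tested on simulated data. A copy was called near-identical from 200 aligned bases and 95% identity upwards (blastn 2.17.0). Figures were drawn with matplotlib 3.10.9.

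The members and lists were chosen with earlier results of these data known. Named genes were the 10 members, Hsf1, Hspa9, up to 3 genes of lowest p among those past the threshold in each list, and the 5 genes most like Hspd1 or the sum of Hspa1a and Hspa1b; Stip1, Fkbp4, Fkbp5, Hspb8, Hspa5 and the copies Gm26825 and Gm9817 were named after their values were seen. Alternatives were other pseudocounts, filters, scalings and thresholds, limma voom on the recovered reads, a replicate block, Hspa1a and Hspa1b summed and leaving out each library. The 95% intervals come from limma.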

Additional observations from a re-analysis of the deposited data

How the results depend on the processing

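The rise of Hspb1 passed in all 19 alternatives, with log2 fold changes of 1.14 to 1.35, and no chaperone gene of the 10 was called lower in any of them. The number called higher was 2 when the fit kept genes averaging 5 RPKM or more, where Hsp90aa1 passed, and 3 at an adjusted p threshold of 0.1, where Hsp90aa1 and Hsph1 passed; leaving out a library always left 1. Of 186 values of single genes under the alternatives, 178 kept direction and side of the threshold, 3 passed where they had not, and 5 changed sign, all for differences near 0 that did not pass. These were Hspa8 without paternal saline replicate 3, Hsp90ab1 without paternal saline replicate 1 or paternal nicotine replicate 3 (-0.12) and Dnajb1 without paternal saline replicate 1 or paternal nicotine replicate 3 (-0.0032). With a library left out, Hspa8 ranged from -0.33 to 0.19, Hsp90ab1 from -0.14 to 0.13 and Dnajb1 from -0.079 to 0.23; the cause was not tested. The sum of Hspa1a and Hspa1b did not pass in any alternative and ranged from 0.14 to 1.04 with a library left out. Over all genes 814 passed, against 367 without a filter on low values, where 25531 genes were tested, 156 and 1411 at thresholds of 0.01 and 0.1, and 182 to 658 with a library left out. With the replicate number as a block 383 passed. The numbers were not taken to pair the animals, since deviations from the group means correlated at 0.0071 to 0.056 between same-numbered libraries, and not every library correlated best with its own number. The block changed no call among the 10 genes, though it changed the SE of some. For the sum of Hspa1a and Hspa1b the SE was 0.22 with the block (limma adjusted p = 0.207) and 0.47 without it. For Hsp90aa1 it was 0.15 with the block and 0.14 without it. Quantile normalization gave Hspe1 a log2 fold change of -0.14. Adding the reads of near-identical copies, chosen after seeing the data, changed no call among the 10 genes.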
